A study of Mus musculus with 24 samples.

Results

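The comparison described here is between cerebral cortex of 5xFAD mice lacking Plcg2 (Plcg2KO) and cortex of 5xFAD mice with the wild-type gene (WT). Its members are 12 of the 24 RNA-seq libraries of the series, picked by the genotype and tissue in their names, with 6 libraries in each group. All 24 animals were 7.5 months old and carried 5xFAD, a set of transgenes that express human proteins, APP among them, with familial Alzheimer's disease mutations under the neuronal Thy1 promoter, so that amyloid plaques form in the cortex of every group. The WT group held 3 males and 3 females, and the Plcg2KO group 4 males and 2 females. The other 12 libraries came from 6 Trem2KO and 6 Plcg2HET 5xFAD mice, and no mice without 5xFAD were analysed here. Litter, collection day and the exons removed from Plcg2 were not stated in the sources. Each library was taken as a separate animal from its animal code, and the p-values measure the spread between these libraries.

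PLCG2 is a phospholipase C of blood and brain immune cells. In the brain it is made mainly by microglia, the resident macrophages. When a receptor such as TREM2 binds lipids or debris, its partner TYROBP (DAP12) is phosphorylated on a tyrosine motif called an ITAM, the kinase SYK docks there, and PLCG2 is recruited and activated. It cuts the membrane lipid PIP2 into IP3, which releases calcium, and diacylglycerol, which activates protein kinase C and RAS guanine exchange factors. Around plaques, microglia pass from a homeostatic state into a disease-associated state (DAM), whose later stage depends on TREM2.

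Levels are CPM, counts scaled to the size of the library and by TMM, which corrects for library composition. Changes are log2 Plcg2KO minus WT with sex as a covariate, ± the standard error. A gene is said to have risen or fallen when its Benjamini-Hochberg adjusted p in edgeR's quasi-likelihood test was under 0.05. Of 16316 genes tested, 888 rose (5.44%) and 1245 fell (7.63%), and the median change over all genes was 0.00 on the log2 scale. The groups did not overlap for 630 genes that were higher and 775 that were lower. Total counts assigned to genes were 43923855 to 71319535 in WT and 49422827 to 81487044 in Plcg2KO libraries. The number of genes that rose depended on single libraries: it was 520 without Plcg2KO F1, 582 without WT F3 and 1017 without WT M2, while the number that fell was 921 to 1250 over all 12 such fits. Upper-quartile scaling moved the median by -0.05 and gave 688 higher and 1568 lower, so that 30.5% of the calls were higher against 41.6% with TMM. Because the tissue was whole cortex, fewer cells of a type and less RNA per cell cannot be told apart.

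Promoters are shown for the largest decreases with a promoter entry, Itgax, Cst7 and Plcg2, and for Trem2. The decreases were ranked among called genes with average log2 CPM of at least 1. Each line is the 250 bases before the RefSeq start site (GRCm38.p6, plus strand), and capitals mark TGANTCA, the motif of AP-1 factors (FOS, JUN, BATF). Itgax is at chr7:128129300-128129549, Cst7 at chr2:150570165-150570414, Plcg2 at chr8:117498025-117498274 and Trem2 at chr17:48346151-48346400.
Itgax: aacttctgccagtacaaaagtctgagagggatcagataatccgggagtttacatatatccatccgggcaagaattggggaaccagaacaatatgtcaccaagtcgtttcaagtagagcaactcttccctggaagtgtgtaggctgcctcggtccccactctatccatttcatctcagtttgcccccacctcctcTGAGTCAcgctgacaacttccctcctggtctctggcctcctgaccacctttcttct
Cst7: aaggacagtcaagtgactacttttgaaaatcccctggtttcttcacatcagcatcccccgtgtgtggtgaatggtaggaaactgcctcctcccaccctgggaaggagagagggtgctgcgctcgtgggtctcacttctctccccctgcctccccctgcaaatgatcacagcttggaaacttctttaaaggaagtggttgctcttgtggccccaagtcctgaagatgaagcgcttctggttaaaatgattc
Plcg2: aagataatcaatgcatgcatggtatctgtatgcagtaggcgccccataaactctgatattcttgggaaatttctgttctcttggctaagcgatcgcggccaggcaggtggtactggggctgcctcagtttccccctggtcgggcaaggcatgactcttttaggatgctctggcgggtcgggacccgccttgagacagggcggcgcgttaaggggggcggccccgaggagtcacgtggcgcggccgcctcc
Trem2: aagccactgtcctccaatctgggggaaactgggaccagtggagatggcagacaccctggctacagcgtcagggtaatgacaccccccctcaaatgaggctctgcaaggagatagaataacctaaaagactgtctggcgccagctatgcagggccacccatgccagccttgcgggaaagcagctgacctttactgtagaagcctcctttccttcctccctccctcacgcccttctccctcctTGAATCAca
The Itgax match begins 56 bases before its start site and the Trem2 match 9 bases before. Cst7 has a match that runs 1 base past its start site and so is not in capitals. The Trem2 window was added after its values were seen. All 4 motifs searched, on both strands, were TGANTCA, GAGGAAGT (the macrophage factor PU.1), TCACGTGA (the lysosomal factors MITF and TFE) and GAAANNGAA (the core of the interferon-stimulated response element). Plcg2's window held none of them.

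Among the 326 genes that fell by more than 2-fold, 224 had a promoter entry, and their shares were read over 250 bases before to 50 after the start. GAGGAAGT was present in 10.7% of these windows, against 3.53% for the genes that rose, 3.39% for all genes tested and 3.69% for all 27025 promoters in the table. TGANTCA was present in 12.5%, against 4.60%, 6.43% and 8.97% for the same sets. GAAANNGAA was present in 16.1%, against 8.28%, 8.62% and 9.76%. TCACGTGA went the other way, with 1 window (0.446%) against 1.99% of genes that rose and 1.93% of all tested. These shares are descriptions of letters in short windows, with no test.

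Plcg2 itself (mm10 chr8:117498291-117635142, plus strand, counted over its exons) checked the labels. In WT libraries it was lowest at 7.73, median 12.6 and highest at 15.2 CPM. In Plcg2KO libraries it was 0.739, 1.0 and 1.21 CPM. Every Plcg2KO library was far under every WT library, and the change was -3.48 ± 0.20 (adjusted p = 3.73e-12, exact two-sided permutation p = 0.00216 over the libraries, the smallest that 6 against 6 allows). Without the removed exons, the counts that remained cannot be assigned to intact or truncated transcript.

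The receptors that feed PLCG2 fell with it. Trem2, the plaque-sensing receptor of microglia, was 46.5, 81.0 and 119.5 CPM (lowest, median, highest) in WT libraries and 14.1, 17.9 and 28.6 CPM in Plcg2KO libraries. The groups did not overlap, WT females were above WT males, and the change was -1.89 ± 0.17 (adjusted p = 1.39e-08). Tyrobp, its ITAM adaptor, was 33.3, 49.2 and 85.7 CPM in WT and 12.4, 16.6 and 24.2 CPM in Plcg2KO libraries. These ranges too were apart, at -1.49 ± 0.16. Fcer1g, the other ITAM adaptor of myeloid cells, was 12.0, 19.6 and 31.7 CPM in WT libraries and 5.23, 7.47 and 10.2 CPM in Plcg2KO libraries, with no overlap (-1.37 ± 0.16). Clec7a (dectin-1, a receptor for fungal glucan that signals through SYK) was 16.0, 32.8 and 64.8 CPM in WT and 1.12, 2.76 and 6.60 CPM in Plcg2KO libraries. Its lowest WT library was above the highest Plcg2KO library, F2 (-3.20 ± 0.27, adjusted p = 8.33e-09). Of 20 ITAM receptors and adaptors listed, 12 passed the count filter and 11 fell, where 7.63% of all tested genes fell, with a median of -1.43. The exception was Hcst (DAP10), at -1.05 ± 0.40 (adjusted p = 0.0840), named after its value was seen.

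**Figure D1:**
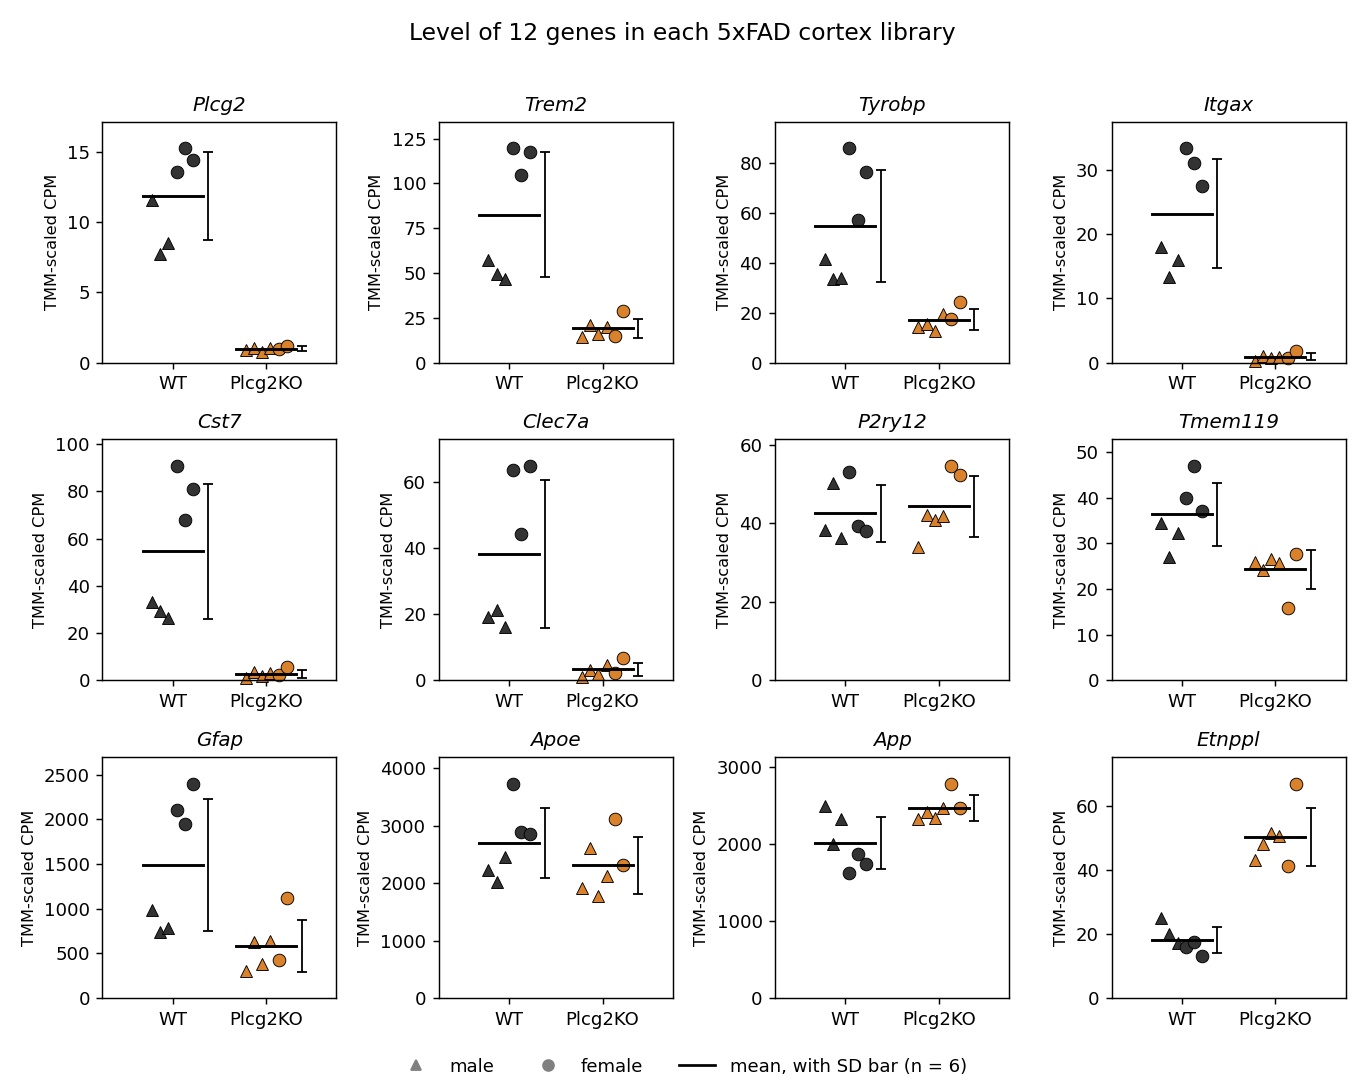
Levels by library: each point is the CPM of 1 library (y axes) for 12 genes, WT on the left and Plcg2KO on the right of each panel, males and females marked separately with the group mean and an SD bar (n = 6). Plcg2, Trem2, Itgax and Cst7 show no overlap between the groups, and P2ry12 and Apoe do.

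Among kinases and adaptors between receptor and phospholipase, the SRC-family kinase Fgr stood lowest. It was 0.733, 1.30 and 2.55 CPM in WT libraries and 0.0178, 0.134 and 0.203 CPM in Plcg2KO libraries. The groups were apart at these low levels, and the change was -3.30 ± 0.35 (adjusted p = 2.14e-07). Lat2 (LAB, a membrane scaffold protein of myeloid cells) was 5.97, 10.1 and 16.0 CPM in WT and 2.46, 2.81 and 4.21 CPM in Plcg2KO libraries. There was no overlap (-1.66 ± 0.20). Sh3bp2, an adaptor of SYK and PLCG2, fell by 1.08, the RAC exchange factor Vav1 by 0.91 and the kinase Btk by 0.81. Syk, the kinase that phosphorylates PLCG2, was 6.18, 8.71 and 11.7 CPM in WT and 4.56, 6.45 and 8.16 CPM in Plcg2KO libraries, overlapping ranges, and it missed the threshold (-0.34 ± 0.15, adjusted p = 0.128). Of 25 genes in the list 13 fell and 1 rose, with a median of -0.40. The gene that rose was Cbl (0.86 ± 0.17), the ubiquitin ligase that ends signalling of these kinases.

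The inhibitory side fell as well. Ptpn6 (SHP-1), the phosphatase recruited by inhibitory receptors, was 11.7, 19.7 and 28.0 CPM in WT and 3.32, 5.38 and 7.49 CPM in Plcg2KO libraries. All Plcg2KO libraries were under all WT libraries (-1.69 ± 0.16). Lilrb4a, an inhibitory receptor reported to bind APOE, was 1.69, 4.02 and 7.33 CPM in WT and 0.160, 0.563 and 0.775 CPM in Plcg2KO libraries. Again there was no overlap (-2.91 ± 0.28). Siglecf, a sialic acid receptor, fell by 2.17 and Fcgr2b, the inhibitory Fc receptor, by 1.07. Of 24 listed, 21 were tested and 12 fell, with a median of -0.61. Weaker calls were those of the Alzheimer's disease risk genes Inpp5d (SHIP1, -0.49 ± 0.14) and Cd33 (-0.42 ± 0.12). The call of Inpp5d was lost without Plcg2KO F1 (-0.41, adjusted p = 0.0775), WT F2 (-0.45, adjusted p = 0.0511) or WT M1 (-0.43, adjusted p = 0.0656). That of Cd33 was lost without Plcg2KO F1, Plcg2KO M1, Plcg2KO M3 or WT M2 (-0.40 to -0.36, adjusted p 0.0503 to 0.0580) and with the deposited expected counts (-0.42, adjusted p = 0.0639).

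The other phospholipase C genes were read for a matching change. Per length, in TPM (transcripts scaled by length and library), the levels in WT cortex were 68.4 for Plcb1, 61.3 for Plcl2, 23 for Plcg1 and 5.74 ± 1.20 (SD, n = 6) for Plcg2. Plcg1, the closest relative of Plcg2, was 51.6, 62.0 and 71.5 CPM in WT and 49.0, 58.9 and 60.8 CPM in Plcg2KO libraries. The groups overlapped and the change was -0.11 ± 0.08 (adjusted p = 0.404). Plcb4 was 30.3, 30.8 and 38.6 CPM in WT and 43.5, 48.6 and 66.8 CPM in Plcg2KO libraries. It rose with no overlap (0.61 ± 0.14). Plcb1 also rose, from 186, 223 and 294 CPM to 316, 325.5 and 390 CPM (0.55 ± 0.15), a call lost without Plcg2KO F1 (0.46, adjusted p = 0.0555). Plcl1, a catalytically inactive relative, rose by 0.42. Plcb2, the beta enzyme of myeloid cells, fell by 0.58. The other 3 calls among the 17 genes each depended on single libraries: Plce1 (0.36) was lost in 9 of the 12 fits that left 1 library out (0.28 to 0.37, adjusted p 0.0660 to 0.145), Plcd3 (-0.41) in 6 (-0.43 to -0.34, adjusted p 0.0503 to 0.121) and Plcxd1 (-0.33) without Plcg2KO F1 or WT F2 (-0.31 to -0.29, adjusted p 0.0512 to 0.0538). With GC and length offsets Plce1 was at 0.19 (adjusted p = 0.213) and Plcxd1 at -0.23 (adjusted p = 0.106), and with the deposited expected counts Plce1 was at 0.32 (adjusted p = 0.100) and Plcd3 at -0.41 (adjusted p = 0.0516).

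Past PLCG2 the pathway divides into a calcium and a diacylglycerol arm. In the calcium arm, the IP3 receptors, store-operated channels, calcineurin and NFAT genes, edgeR called 0 of 20 genes, 2 had an unadjusted p under 0.05, and DESeq2 and limma called 0. Levels of these genes in WT cortex ranged from 0.537 TPM for Nfatc4 to 897 TPM for Ppp3r1, against 5.74 for Plcg2. The part of these levels that came from microglia was not tested, so their change within microglia cannot be read here. In the diacylglycerol arm 6 of 24 fell and 3 rose, with a median of -0.13. Rasgrp3, the RAS exchange factor that binds diacylglycerol in microglia, was 19.0, 22.9 and 29.1 CPM in WT and 9.07, 11.3 and 12.9 CPM in Plcg2KO libraries. There was no overlap (-1.0 ± 0.10, adjusted p = 1.56e-07). Card9, which couples SYK receptors to NF-kB, was 1.49, 2.44 and 3.41 CPM in WT and 0.754, 1.28 and 1.80 CPM in Plcg2KO libraries. Only 4 of 6 Plcg2KO libraries were under every WT library (-0.89 ± 0.20), and the call was lost with the deposited expected counts (-0.53, adjusted p = 0.146). The diacylglycerol kinases Dgki (0.54), Dgkb (0.59) and Dgkh (0.61) rose and Dgkq fell by 0.36. The call of Dgkh was lost in 6 of the 12 fits leaving 1 library out (0.58 to 0.60, adjusted p 0.0542 to 0.0728). Of 30 phosphoinositide kinases and phosphatases 3 rose and the median was 0.00: Pip5k1b (0.40), which lost its call without Plcg2KO F1 (0.31, adjusted p = 0.0738), Synj1 (0.37), lost in 6 such fits (adjusted p 0.0526 to 0.0880), and Pi4ka (0.28), lost in 10 (adjusted p 0.0510 to 0.126). Pi4ka was at 0.17 (adjusted p = 0.202) with GC and length offsets, and neither it (adjusted p = 0.0633) nor Synj1 (adjusted p = 0.0526) was called with the expected counts.

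**Figure D2:**
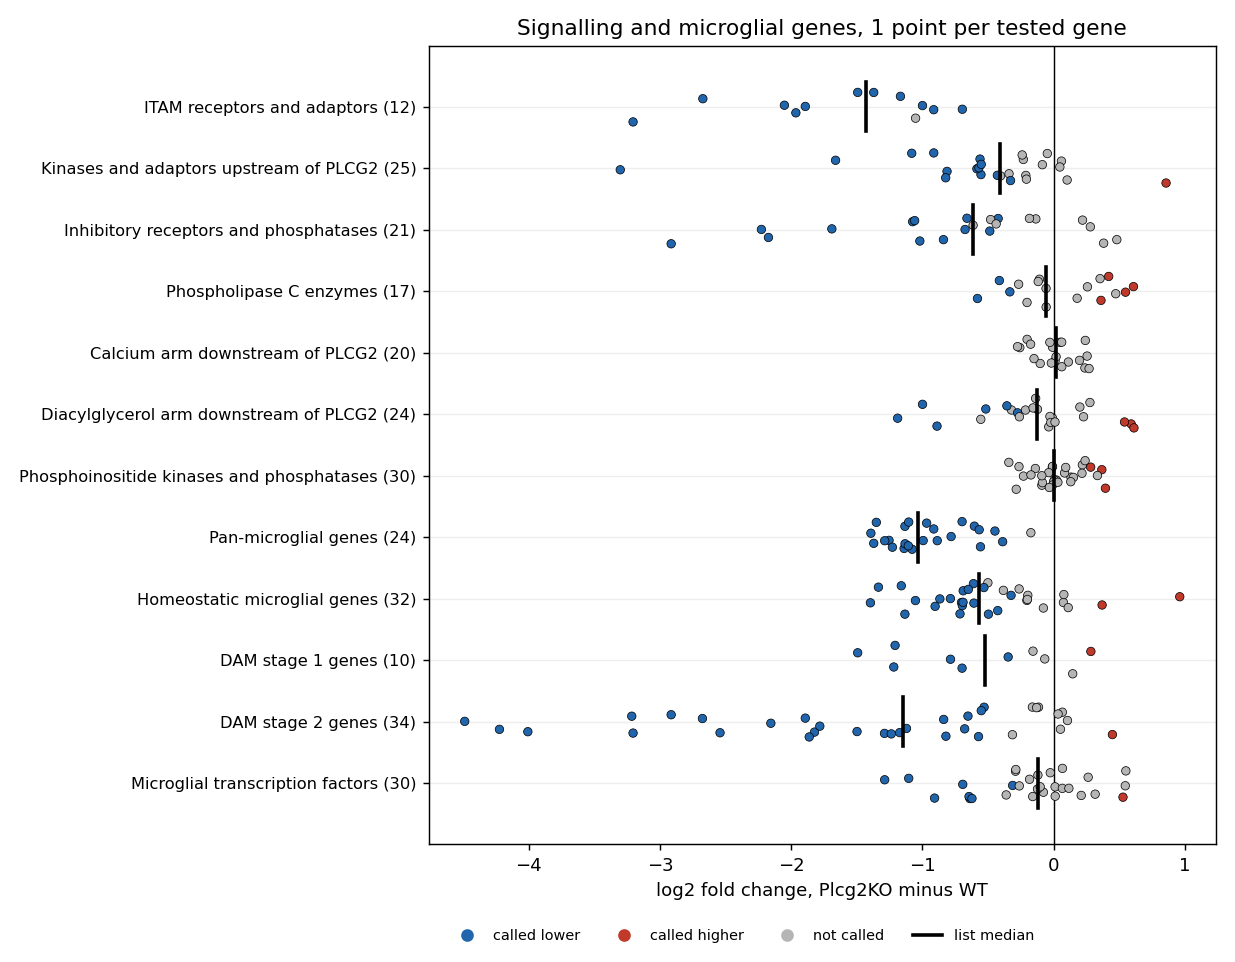
Changes in signalling and microglial genes: each point is 1 tested gene, placed by its log2 change Plcg2KO minus WT on the x axis within its list on the y axis, with called genes coloured and a bar at the list median. ITAM receptors, late DAM genes and pan-microglial genes lie mostly left of 0, and the calcium arm lies around 0.

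The late DAM list held the 2 largest decreases, of Itgax and Cst7, among genes whose mean log2 CPM reached 1. Itgax (CD11c, an integrin that marks plaque microglia) was 13.3, 22.8 and 33.4 CPM in WT and 0.232, 0.796 and 1.83 CPM in Plcg2KO libraries. No Plcg2KO library came near the WT range, and the change was -4.49 ± 0.22 (adjusted p = 1.65e-13). Cst7 (cystatin F, an inhibitor of lysosomal proteases) was 26.4, 50.5 and 90.7 CPM in WT and 0.820, 2.52 and 5.59 CPM in Plcg2KO libraries, the lowest in M1 and the highest in F2 (-4.01 ± 0.26). Ccl3, a chemokine, was 4.34, 6.17 and 10.8 CPM in WT and 0.107, 0.680 and 1.24 CPM in Plcg2KO libraries. The gap was again complete (-3.21 ± 0.28). Smaller changes were seen in Gpnmb, a lysosomal glycoprotein of lipid-laden macrophages, at 6.97, 16.2 and 28.6 CPM in WT and 2.90, 4.08 and 4.90 CPM in Plcg2KO libraries (-1.82 ± 0.21). Lpl, lipoprotein lipase, was 53.5, 62.8 and 82.2 CPM in WT and 30.5, 34.8 and 43.7 CPM in Plcg2KO libraries. Both genes had separate groups (Lpl -0.84 ± 0.13). Of 34 late DAM genes 25 fell, and the median was -1.15. For 22 of the 34 all Plcg2KO libraries were under all WT libraries, against 775 of all 16316 genes tested. The exception that rose was Colec12, a scavenger receptor also made by vascular and meningeal cells (0.45 ± 0.10). Spp1 (osteopontin) fell by 0.82, a call lost without Plcg2KO F1 (-0.70, adjusted p = 0.0512). Apoe, made mostly by astrocytes, was 2017, 2654.5 and 3729 CPM in WT and 1773, 2215.5 and 3114 CPM in Plcg2KO libraries, with 2 Plcg2KO libraries under all WT libraries and the others within their range (-0.16 ± 0.15, adjusted p = 0.533).

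Early DAM genes and homeostatic genes had medians closer to 0. Of 10 early DAM genes 6 fell and Timp2, a metalloprotease inhibitor, rose, with a median of -0.52. Of 32 homeostatic microglial genes 20 fell and 2 rose, with a median of -0.57. Cx3cr1, the fractalkine receptor, was 125, 163 and 211 CPM in WT and 72.2, 79.7 and 113 CPM in Plcg2KO libraries. The ranges did not meet (-0.87 ± 0.10). Csf1r, the receptor for the survival factors of microglia, was 150, 203 and 275 CPM in WT and 115, 129 and 156.5 CPM in Plcg2KO libraries, where 5 libraries lay under all WT libraries and F2 did not (-0.60 ± 0.14). P2ry12, the purinergic receptor of surveying microglia, was 36.2, 38.7 and 53.1 CPM in WT and 33.9, 42.0 and 54.5 CPM in Plcg2KO libraries. These overlapped almost wholly (0.08 ± 0.12, adjusted p = 0.723). Tmem119 was 27.1, 35.8 and 46.9 CPM in WT and 15.9, 25.7 and 27.6 CPM in Plcg2KO libraries, with F1 lowest (-0.50 ± 0.15). Its call was lost without Plcg2KO F1, Plcg2KO F2, WT F2, WT M1 or WT M3 (-0.50 to -0.34, adjusted p 0.0560 to 0.110) and with GC and length offsets (-0.31, adjusted p = 0.0605). Mertk, a receptor for apoptotic cells, was 36.0, 38.2 and 47.0 CPM in WT and 38.7, 52.0 and 57.5 CPM in Plcg2KO libraries, 4 of them above all WT (0.37 ± 0.10), a call lost without Plcg2KO M3 (0.32, adjusted p = 0.0513). The other homeostatic gene that rose was the nuclear receptor partner Nrip1 (0.96 ± 0.19), which neurons also express. Of 30 microglial transcription factors tested, 8 fell, with the smallest p for Irf8 (-1.29 ± 0.13), Spi1 (PU.1, -1.10 ± 0.20) and Ikzf1 (-0.64 ± 0.12). Bhlhe40 rose (0.53 ± 0.11). Mitf (-0.12) and Sall1 (-0.08) did not pass the test. Among 24 pan-microglial genes, 23 fell with a median of -1.04, and their summed level was 1554 to 2734 CPM in WT and 1106 to 1607 CPM in Plcg2KO libraries.

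To set single genes against the microglial content of each library, the fit was repeated with the mean log2(CPM + 0.5) of the 24 pan-microglial genes subtracted from every gene. That index was 5.05 to 5.29 in WT males, 5.76 to 5.90 in WT females and 4.25 to 4.92 in Plcg2KO libraries, so subtracting it moves a gene that did not change up by about 1.0. On this scale 96.7% of the genes tested came out higher and 0.454% lower (median 0.92), and only genes that follow microglia can be read on it. Among 163 genes of the microglial lists, the lower genes with the smallest p were Itgax (-3.03 ± 0.14), Cst7 (-2.97 ± 0.17), Clec7a (-2.21 ± 0.19), Ccl3 (-1.64 ± 0.16), Ccl6 (-1.51 ± 0.15) and Trem2 (-0.98 ± 0.11), which fell beyond the index. The pseudocount shrinks the change of genes at few CPM before the index is subtracted, so such a gene can stand above the index although it fell: Cd300lb, named after its values were seen, had an edgeR change of -2.67 and stood 0.46 above the index. The counts of higher genes that follow include such genes, and the counts of lower genes can miss them. Atp6v0d2, a late DAM gene named after its values were seen, had an edgeR change of -4.22. Relative to the index it stood at -0.19 ± 0.17 and was not called lower. Relative to the index, 13 of 34 late DAM genes were lower and 13 higher, against 1 lower and 21 higher of 32 homeostatic genes. The inhibitory list gave 3 lower and 13 higher of 21. Higher than the index with the smallest p were Ms4a6b (1.43 ± 0.14), of a family of immune membrane proteins, Bhlhe40 (1.44 ± 0.17), Colec12 (1.35 ± 0.15), Mertk (1.28 ± 0.17), Timp2 (1.21 ± 0.15) and Nr1h3 (0.98 ± 0.13). P2ry12 was at 1.0 ± 0.17 and Tmem119 at 0.40 ± 0.13.

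**Figure D3:**
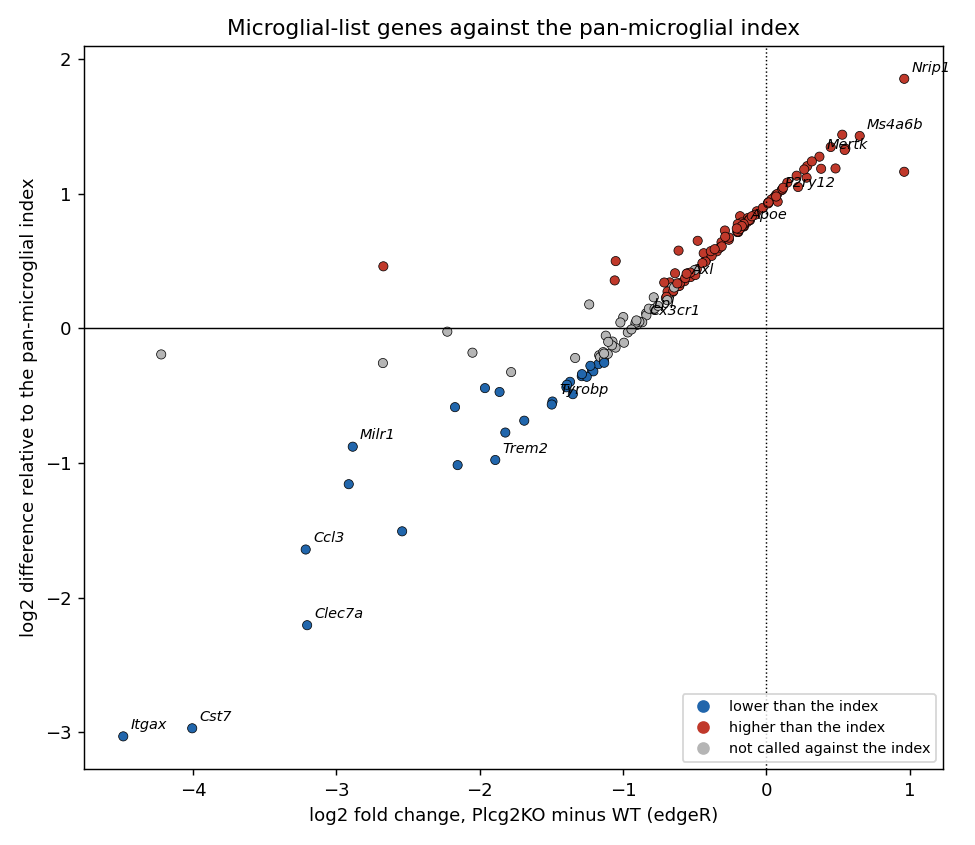
Change against change relative to the pan-microglial index: each point is a gene of the microglial lists, with its log2 change Plcg2KO minus WT on the x axis and its change after subtracting the index on the y axis. Itgax, Cst7 and Clec7a lie at the bottom left, below the other genes, and Mertk and P2ry12 lie in the upper right.

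Immune effector genes of microglia fell broadly. Of 28 chemokines, cytokines and growth factors tested 14 fell, with a median of -0.54, including Ccl4 (-3.25 ± 0.42), Tnfsf8 (-2.28 ± 0.31), Ccl6 (-2.54 ± 0.22) and Csf1 (-0.53 ± 0.10), while Il1b (-0.34 ± 0.29) and Il34 (-0.24 ± 0.11) did not pass. Of 9 Fc receptors 7 fell (median -1.13), led by Milr1 (-2.89 ± 0.28), an inhibitory immunoglobulin-like receptor. Among 25 Toll-like receptor pathway genes 12 fell (median -0.43), led by Tlr2 (-2.03 ± 0.20), Cd14 (-1.92 ± 0.21), Tlr12 (-1.57 ± 0.22) and Cd180 (-1.56 ± 0.18). Genes of the inflammasome, which matures interleukin 1, were lower too: 8 of 16 fell, with Naip5 at -1.13, Pycard at -1.05 and Nlrp3 at -1.03. Of 10 genes of MHC class II antigen presentation 8 fell (median -1.34). Cd74, the invariant chain, was 13.5, 26.7 and 42.5 CPM in WT and 3.52, 6.08 and 7.64 CPM in Plcg2KO libraries. The groups were apart (-2.24 ± 0.21), and here the highest WT library was a male, M2. Of 43 interferon-stimulated genes 26 fell (median -0.70), with Ifi204 at -1.38, Lgals3bp at -0.91, Irf9 at -0.70 and Slfn5 at -0.68. That count was 17 without Plcg2KO F1. Of 22 complement genes 8 fell and 1 rose (median -0.36): C1qa, C1qb and C1qc, the chains of the initiating protein, fell by 1.35, 1.25 and 1.13, C3 fell by 1.15 (lost without WT M1, -0.93, adjusted p = 0.0582), Serping1, the C1 inhibitor, rose by 0.50 and C4b was at -0.63 ± 0.28 (adjusted p = 0.146). The call of Serping1 was lost with no sex term (0.41, adjusted p = 0.0958) and in females alone (0.27, adjusted p = 0.446). Of 20 NADPH oxidase and microglial channel genes 11 fell and 2 rose. The NADPH oxidase subunit Cybb (-1.81) and the proton channel Hvcn1 (-1.50), which make and sustain the oxidative burst, fell, and the potassium channel Kcna3, also neuronal, rose (0.72). The other rise was of Lrrc8a, a volume-regulated anion channel (0.35). In the eicosanoid list 7 of 21 fell, among them Tbxas1 (thromboxane synthase, -1.54), Alox5 (-1.29) and Ptgs1 (COX-1, -0.55), while the inducible Ptgs2 (COX-2), a neuronal activity gene in cortex, rose (0.54).

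Some of the lysosomal genes fell. Of 62 hydrolases and lysosomal membrane proteins 28 fell, and the median was -0.22. For 22 of the 62 all Plcg2KO libraries were under all WT libraries, against 775 of all 16316 genes tested. Ctse (cathepsin E) was 0.600, 2.08 and 2.63 CPM in WT and 0, 0.104 and 0.155 CPM in Plcg2KO libraries, with F1 at 0. No Plcg2KO library reached the WT range (-4.00 ± 0.38). Cd68, a macrophage lysosomal glycoprotein, was 37.9, 66.8 and 85.2 CPM in WT and 13.7, 21.5 and 27.6 CPM in Plcg2KO libraries, apart at -1.50 ± 0.13. The iron transporter Slc11a1 fell by 2.04, Ctsz by 1.29 and Ctsh by 1.21. Of lipid handling genes, 6 of 39 fell and Apod, a lipid carrier, rose (0.45, lost in 5 of the 12 fits leaving 1 library out, adjusted p 0.0534 to 0.0778), with a median of -0.06. The oxysterol enzyme Ch25h fell by 1.78 and Pld4, an endolysosomal enzyme of the phospholipase D family, by 0.94. Abca1, the cholesterol exporter, was at 0.44 ± 0.15 (adjusted p = 0.0520) and was called higher in 8 of 28 alternative settings. Nr1h3 (LXR alpha) was at 0.07. Among 27 glycolysis genes 3 fell (11.1%, against 7.63% of all tested genes), Hk2 (-0.75), Hk3 (-0.89) and the lactate exporter Slc16a3 (-0.91). edgeR called 0 of 36 oxidative phosphorylation genes, where 1 had an unadjusted p under 0.05, DESeq2 called 1 and limma 0. Of 28 cell cycle genes 3 fell (10.7%) and 2 rose (7.14%), against 7.63% and 5.44% of all tested genes. They gave no common direction: Cdk1 (-1.35), Plk1 (-0.84) and Tyms (-0.77) fell, Mki67 was at 0.23 ± 0.28 (adjusted p = 0.632), and the calls of Kif11 (0.53) and Mcm4 (0.35) were lost in 8 and 5 of the 12 fits leaving 1 library out (adjusted p 0.0611 to 0.162 and 0.0596 to 0.0786). Kif11 was at 0.35 (adjusted p = 0.193) with GC and length offsets.

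Plaque-related sets were read next. Of 53 plaque-induced genes, a published group that rises in tissue around plaques, 43 fell with a median of -0.90. Of 41 genes at Alzheimer's disease risk loci 14 fell and 2 rose (median -0.21): besides those above, Abi3, an actin regulator of microglia, fell by 0.96, Bin1 was at -0.20 (adjusted p = 0.160) and the rises were of Sorl1, the endosomal sorting receptor of APP (0.61 ± 0.13), and Tmem106b, a lysosomal protein (0.41 ± 0.11). How reads of the human transgenes were counted was not stated, and App may include some. App was 1621, 1937.5 and 2492 CPM in WT and 2327, 2443.5 and 2780 CPM in Plcg2KO libraries. The groups overlapped, with only F1 above all WT libraries (0.29 ± 0.10, adjusted p = 0.0521). Of 28 alternative settings 11 called App higher, and its change ranged from 0.06 to 0.61. Thy1, whose promoter drives the transgenes, was at -0.25 ± 0.10 (adjusted p = 0.108) and Mapt (tau) at -0.10 ± 0.07. Of 28 genes of APP processing and amyloid clearance 2 rose (7.14%, against 5.44% of all tested genes), Sorl1 and Ttr (transthyretin). Ttr, the main product of choroid plexus, was 0.0691, 0.300 and 1.08 CPM in WT and 0.243, 2.45 and 5.68 CPM in Plcg2KO libraries, 5 of them above all WT (2.77 ± 0.60). The 2 calls among 18 choroid plexus and ependymal genes were Ttr and Kcnj13 (0.64), the latter lost in 8 of the 12 fits (adjusted p 0.0518 to 0.113) and with the expected counts (0.52, adjusted p = 0.143). The part of choroid plexus tissue in the Ttr value was not tested.

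Astrocyte genes moved in both directions. Gfap, the intermediate filament of reactive astrocytes, was 733, 1463 and 2396 CPM in WT and 301, 527 and 1113 CPM in Plcg2KO libraries. Only F2 reached the WT range (-1.08 ± 0.23, adjusted p = 0.00187). Serpina3n, a protease inhibitor of reactive glia, was 28.0, 57.8 and 88.3 CPM in WT and 13.7, 22.1 and 55.5 CPM in Plcg2KO libraries, F2 again being the one inside the WT range (-0.91 ± 0.22). Lcn2 (lipocalin 2), a secreted protein of inflamed tissue, went the opposite way, from 0, 0.152 and 0.375 CPM in WT to 0.238, 1.08 and 2.30 CPM in Plcg2KO libraries, 4 of them above all WT (2.63 ± 0.54). Of 33 reactive astrocyte genes 11 fell, Aspg (-1.24), Cd44 (-0.71) and Vim (-0.56) among them, and Lcn2, Serping1 and Fkbp5 rose (median -0.34). Of 28 general astrocyte genes 7 rose and 2 fell (median 0.15). Etnppl, an enzyme of phosphoethanolamine breakdown, was 13.0, 17.3 and 25.0 CPM in WT and 41.4, 49.4 and 67.0 CPM in Plcg2KO libraries. Every Plcg2KO library was above every WT library (1.46 ± 0.17, adjusted p = 7.58e-07). Fmo2, a monooxygenase, was 1.61, 2.03 and 2.39 CPM in WT and 3.72, 6.84 and 8.55 CPM in Plcg2KO libraries, also apart (1.70 ± 0.18). The bicarbonate transporter Slc4a4 (0.65) and the glutamate transporter Slc1a3 (0.46) rose. The summed astrocyte list was 9484 to 11475 CPM in WT and 10847 to 11727 CPM in Plcg2KO libraries.

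Of 25 oligodendrocyte genes 5 fell and Mal rose (0.51 ± 0.08). Klk6, a protease induced in oligodendrocytes near damage, was 6.21, 7.87 and 13.7 CPM in WT and 2.46, 3.98 and 4.72 CPM in Plcg2KO libraries. There was no overlap (-1.01 ± 0.19). Hapln2, a matrix protein of nodes, fell by 0.59, Mbp, myelin basic protein, by 0.37, and the gap junction gene Gjb1 by 0.56, the last a call lost in 9 of the 12 fits leaving 1 library out (adjusted p 0.0550 to 0.122). The count of 5 was 3 without WT F1, WT F2, WT F3, Plcg2KO M1, Plcg2KO M3 or Plcg2KO F1, 8 with GC and length offsets or with only Plcg2KO and WT fitted, and 10 without Plcg2HET. Of 17 genes of precursors and newly formed oligodendrocytes 4 rose, the matrix genes Ptprz1 (0.66) and Tnr (0.54) and, with calls lost when single libraries were left out, Pdgfra (lost in 6 of the 12 fits, adjusted p 0.0528 to 0.0771) and Lhfpl3 (lost in 9, adjusted p 0.0580 to 0.0996). With the deposited expected counts 2 of the 17 rose. Of 19 disease-associated oligodendrocyte genes 9 fell and 4 rose (median -0.54).

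Vessel and border cells differed in direction. Cldn5, the tight junction protein of the blood-brain barrier, was 20.2, 23.1 and 27.0 CPM in WT and 9.13, 12.8 and 16.1 CPM in Plcg2KO libraries. The groups were apart (-0.86 ± 0.19, adjusted p = 0.00342). Of 28 endothelial genes 10 fell (median -0.37), Tek (-0.82), Kdr (-0.77), Slco1a4 (-0.60) and Cd34 (-0.51) among them, and the lipid transporter Mfsd2a rose (0.52). Their summed level was 513 to 746 CPM in WT and 444 to 516 CPM in Plcg2KO libraries. Notch ligands of vessels, Dll4 (-0.97) and Jag2 (-0.44; with the expected counts -0.36, adjusted p = 0.0591), fell, and the call of the pericyte target Heyl (-0.55) was lost in 9 of the 12 fits leaving 1 library out (adjusted p 0.0546 to 0.0992). Meningeal fibroblast genes moved up, 14 of 27 rising with a median of 0.48. Ogn (osteoglycin) was 2.44, 3.67 and 5.58 CPM in WT and 8.21, 9.86 and 10.7 CPM in Plcg2KO libraries. No library overlapped (1.38 ± 0.20), and Slc13a4 (0.85), Fmod (0.75) and Aldh1a2 (0.65) rose too. Of 20 genes of macrophages at the brain's borders 6 rose and the median was 0.31. Mrc1 (CD206), their defining receptor, was 2.30, 3.47 and 4.18 CPM in WT and 5.24, 6.22 and 7.41 CPM in Plcg2KO libraries, again apart (0.91 ± 0.19), with Cd163 (0.94), Cd38 (0.90) and F13a1 (0.65). The summed fibroblast list was 889 to 1195 CPM in WT and 1131 to 1252 CPM in Plcg2KO libraries, and the border macrophage list 143 to 162 and 147 to 169 CPM. The part of meninges left on the dissected cortex in these values was not tested.

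Of 28 leukocyte genes 12 passed the count filter, and the summed level of the 25 in the table was 18.1 to 20.0 CPM in WT and 19.3 to 25.4 CPM in Plcg2KO libraries. Cd5 was 0.333, 0.462 and 0.929 CPM in WT and 0.0535, 0.132 and 0.186 CPM in Plcg2KO libraries, with no overlap (-2.02 ± 0.45). S100a9 rose (2.46 ± 0.70), a call lost without Plcg2KO F2 (1.68, adjusted p = 0.131). Of 7 red blood cell genes 4 were at 0 in all 12 libraries, and the list summed to 56.1 to 75.6 CPM in WT and 53.5 to 63.0 CPM in Plcg2KO libraries.

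**Figure D4:**
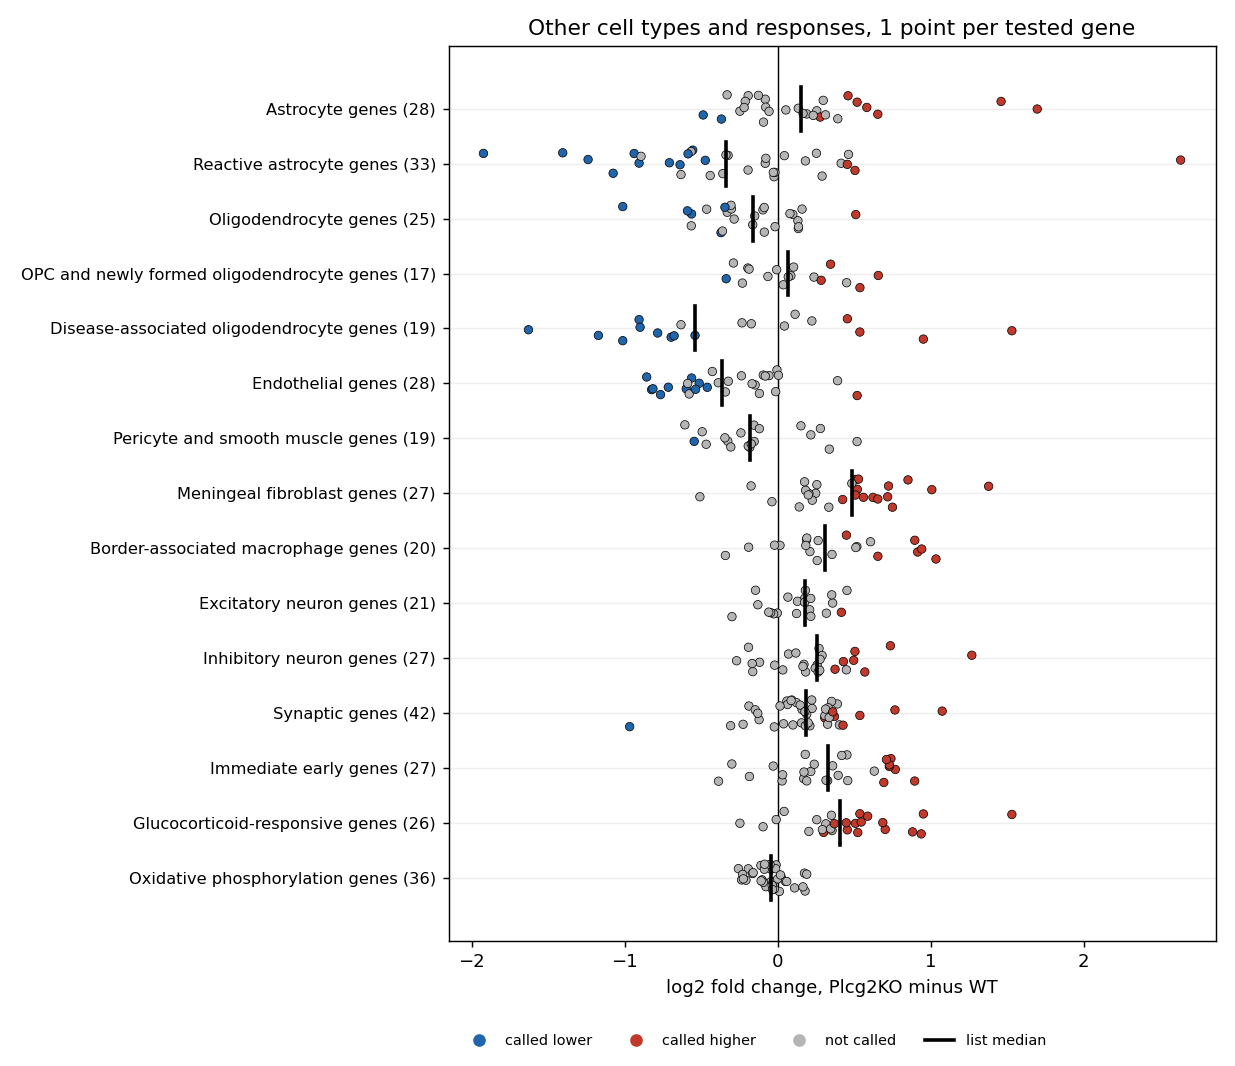
Changes in lists of other cell types: each point is 1 tested gene, placed by its log2 change Plcg2KO minus WT on the x axis within its list on the y axis, with called genes coloured and a bar at the list median. Endothelial genes lie mostly left of 0, and meningeal fibroblast and glucocorticoid-responsive genes mostly right of it.

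Neuronal genes that changed were mostly higher. Gad2, which makes GABA at terminals, was 106, 143 and 222 CPM in WT and 239, 256 and 275 CPM in Plcg2KO libraries. All Plcg2KO libraries were above WT (0.74 ± 0.18), while Gad1, the enzyme of the cell body, was at 0.27 ± 0.15 (adjusted p = 0.243). Erbb4, the neuregulin receptor of interneurons, was 4.21, 5.79 and 7.11 CPM in WT and 13.0, 13.6 and 15.6 CPM in Plcg2KO libraries. There was a wide gap between the groups (1.27 ± 0.15). Of 27 inhibitory neuron genes 7 rose (median 0.26), and of 21 excitatory neuron genes 1 rose, Slc17a6 (0.42), a call lost in 6 of the 12 fits leaving 1 library out (adjusted p 0.0638 to 0.117) and with the expected counts (adjusted p = 0.0542). Slc17a7, the main cortical glutamate transporter of vesicles, was at -0.30 ± 0.12 (adjusted p = 0.0944). Pclo (piccolo, a presynaptic scaffold) was 112, 130 and 167 CPM in WT and 247, 262 and 355 CPM in Plcg2KO libraries, with no overlap (1.07 ± 0.12). Grin2b, an NMDA receptor subunit, went down, from 71.5, 86.7 and 145 CPM to 43.3, 48.9 and 52.2 CPM, also without overlap (-0.97 ± 0.22). Of 42 synaptic genes 7 rose and Grin2b fell (median 0.18), and the count that rose was 3 without Plcg2KO F1. Of 27 immediate early genes 7 rose (median 0.33), with Fosb at 0.77, Fosl2 at 0.74, Egr1 at 0.73 and Dusp5 at 0.69, while Fos was at 0.45 ± 0.19 (adjusted p = 0.117). In the fit by sex described below, 0 immediate early genes rose in males and 7 in females (medians 0.24 and 0.42). Inhibitory neuron genes gave 1 and 7 rises, and synaptic genes 1 and 9. Over all genes tested, 0.466% rose in males and 4.82% in females. Only 2 Plcg2KO libraries were female, and these differences between the sexes were not tested.

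Glucocorticoid-responsive genes, which steroid hormone released in stress induces in many cells, moved up. Of 26, 15 rose and the median was 0.41. Tsc22d3 (GILZ), an anti-inflammatory target of the receptor, was 49.3, 51.5 and 55.2 CPM in WT and 63.3, 82.7 and 104 CPM in Plcg2KO libraries. The WT libraries were tight and all Plcg2KO libraries lay above them (0.70 ± 0.12, adjusted p = 0.000144). Plin4, a lipid droplet coat protein, was 1.66, 2.44 and 3.98 CPM in WT and 3.58, 5.15 and 16.4 CPM in Plcg2KO libraries, 5 of them above all WT and M3 far above the rest (1.53 ± 0.35). The kinase Sgk1 (0.95 ± 0.18) and the transcription factor Zbtb16 (0.94 ± 0.14) rose, as did Fkbp5, a chaperone of the receptor (0.45 ± 0.14), whose call was lost in 5 of the 12 fits leaving 1 library out (adjusted p 0.0501 to 0.0864) and with the expected counts (adjusted p = 0.0547). The summed list was 1360 to 1600 CPM in WT and 1740 to 2182 CPM in Plcg2KO libraries. Handling and time of collection were not stated, and their part was not tested.

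Gene structure moved with these values. Across 16184 genes with a GC value, Spearman's rho between GC content and the change was -0.32, and it was 0.30 with genomic span and 0.26 with exon length over all 16316 genes. Genes share libraries, so no p is given. With genes cut into 5 equal bins by span, in the longest bin 408 rose and 99 fell, against 63 and 305 in the shortest bin. Within each library, deviations from the mean of all libraries were also ranked against GC content. This correlation was -0.54 to 0.27 in WT and -0.60 to -0.30 in Plcg2KO libraries (exact permutation p = 0.0152, adjusted p = 0.0455 over 3 such measures). The same correlation with exon length was -0.47 to 0.18 and 0.05 to 0.28, and it did not pass this test (adjusted p = 0.156). Neither did the share of counts in Rn45s, the ribosomal RNA precursor (adjusted p = 0.491). Of 58 clustered protocadherins, long single-exon or shared-exon cell surface genes that give neurons their identity, 22 rose and 1 fell, and the median was 0.41. Pcdhga8 (0.64), Pcdhgc4 (0.66), Pcdhgc3 (0.56) and Pcdhga11 (0.56) were among them, and their shared exons mean that reads could be split between members. The exception, Pcdhgb8 (-0.81), lost its call in 5 of the 12 fits leaving 1 library out (adjusted p 0.0527 to 0.0620). The number that rose was 22 with GC and length offsets and 5 with the deposited expected counts, where Pcdhgc3 (0.28, adjusted p = 0.0563) and Pcdhga11 (0.27, adjusted p = 0.0997) were not called. The part of RNA quality or library preparation in these trends was not tested.

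The neighbourhood of Plcg2 was checked, since sequence carried along from the targeted strain can differ from wild type there. Of 77 tested genes within 5 Mb of Plcg2 on chromosome 8, 5 rose (6.49%) and 3 fell (3.90%), with a median of -0.01. Of all genes tested 5.44% rose and 7.63% fell, so these counts are near those shares or under them. Irf8 and Cyba, a subunit of the NADPH oxidase, are microglial genes in this interval. Cyba was 11.2, 19.6 and 36.2 CPM in WT and 5.65, 7.07 and 9.26 CPM in Plcg2KO libraries, apart at -1.39 ± 0.22. Foxc2 (1.34 ± 0.26), a meningeal transcription factor, and Cntnap4 (0.39 ± 0.09) rose. The calls of Vat1l (0.31; without WT F1 0.26, adjusted p = 0.0519), Gse1 (0.36; lost in 5 such fits, adjusted p 0.0682 to 0.105, and with the expected counts, adjusted p = 0.0767) and Mvd (-0.38; lost in 8, adjusted p 0.0534 to 0.103, and with GC and length offsets, -0.19, adjusted p = 0.132) depended on single libraries, and without WT F1 the number that rose was 3. Foxc2 and Gse1 did not pass the test between Plcg2KO and Plcg2HET (-0.39, adjusted p = 0.209, and -0.01, adjusted p = 0.931). In that contrast 20.2% of all genes tested were lower and 15% higher, and its values for the other called neighbours are not reported here.

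The sexes were compared in a fit with an interaction of sex and genotype. In males 339 genes fell (2.08%) and 76 rose (0.466%), and in females 818 fell (5.01%) and 786 rose (4.82%), with 3 males against 4 and 3 females against 2. The interaction had 0 calls in edgeR over all 4 groups, with 1271 genes at an unadjusted p under 0.05, and 59 calls when only Plcg2KO and WT were fitted. All 1245 genes that fell, and 887 of the 888 that rose, had the same sign in both sexes. These genes were picked by the fit of both sexes together, so their shared sign is no separate test. Itgax was at -4.42 in males and -4.59 in females. Gfap was at -0.77 in males (adjusted p = 0.221) and -1.48 in females (adjusted p = 0.0150), with an interaction p of 0.143 before adjustment. Of 34 late DAM genes 16 fell in males and 24 in females, with medians of -0.82 and -1.58. Of 26 glucocorticoid-responsive genes 9 rose in males and 4 in females, and of 28 endothelial genes 8 and 1 fell. Of 58 protocadherins 0 rose in males and 21 in females, with medians of 0.25 and 0.68. These list differences between the sexes were not tested. The smallest interaction p-values were of Dcstamp, a fusion receptor of macrophages (-1.42 in males, -9.38 in females), Dlk1 (0.47 and 2.02), Plau, urokinase (-1.80 and -3.05), Hpse, heparanase (-1.05 and -2.59), and Fam83d (1.27 and -0.26), with adjusted p 0.452 to 0.493. Counts of Dcstamp are so low that its size in females has no firm scale.

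**Figure D5:**
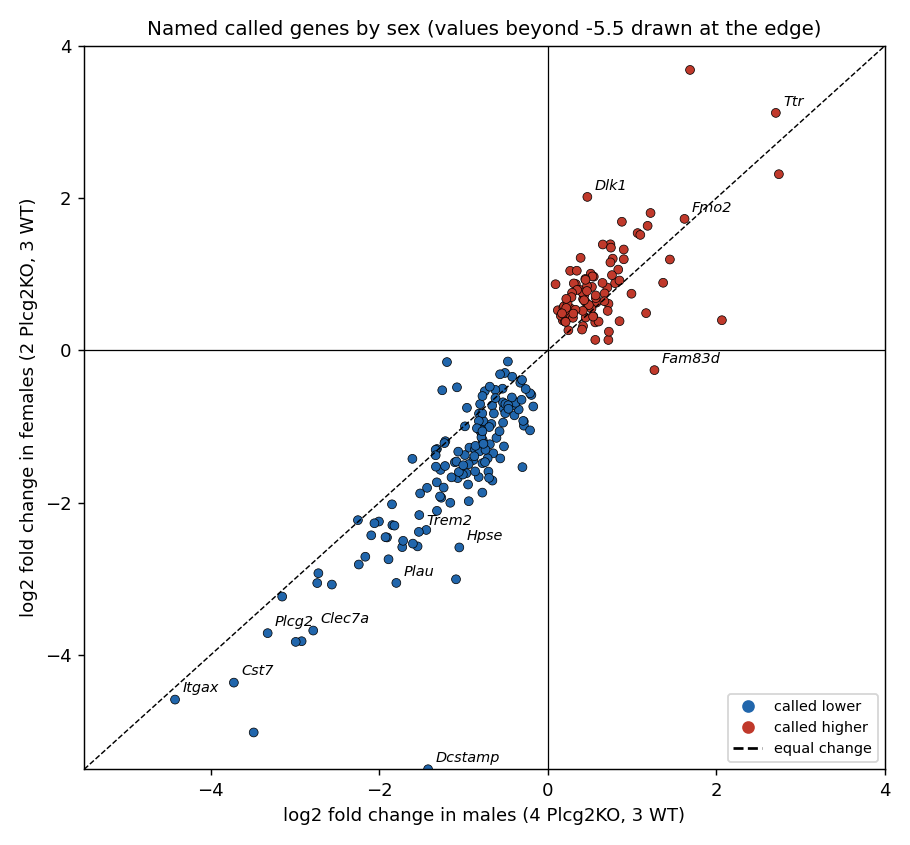
Change in males against change in females: each point is 1 of the 240 named genes that were called, with log2 Plcg2KO minus WT in males on the x axis and in females on the y axis, and the diagonal where both are equal. Apart from Fam83d the points lie at the lower left and upper right, and 1 value (Dcstamp in females) is drawn at the lower edge. The genes were picked by the fit of both sexes together.

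A direct contrast with Trem2KO cortex, from the same fit, tested where the knockouts of phospholipase and receptor differed. Genes lower in Plcg2KO than in Trem2KO made up 8.82% of those tested and genes higher 7.63%. Within-library trends with GC content, described above, were -0.60 to -0.30 in Plcg2KO and -0.08 to 0.55 in Trem2KO libraries, with no overlap, and their part in this contrast was not tested. Of 24 pan-microglial genes 3 were lower, with a median of -0.25. Of 62 lysosomal genes, whose median was -0.27, 24 were lower and 1 higher, Ctsd by 0.42 (log2, adjusted p = 0.0215) and Cd68 by 0.50 (adjusted p = 0.0169). Of 28 endothelial genes 10 were lower, with a median of -0.40, Dll4 at -1.18 (adjusted p = 0.00227) and Cldn5 at -0.64 (adjusted p = 0.0288). Of 26 glucocorticoid-responsive genes 13 were higher, with Tsc22d3 at 0.64 (adjusted p = 0.00283). Of 34 late DAM genes 6 were lower and 3 higher, with Cst7 at -0.99 (adjusted p = 0.0136). Lcn2 was higher (3.57, adjusted p = 0.00107), Fam107a, an actin-bundling gene of astrocytes, was higher (0.78, adjusted p = 9.14e-07), and Mal was higher (0.60, adjusted p = 0.000113). Homeostatic genes split, 6 of 32 being higher, Mertk at 0.47 (adjusted p = 0.00833), and 4 lower, Fcrls at -0.61 (adjusted p = 0.0111). Of 53 plaque-induced genes 14 were lower and 1 higher.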

How the data were processed

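RNA from cortex was made into poly(A) libraries from 100 ng RNA per sample, per the labels' protocols. STAR 2.7.10a, featureCounts 2.0.3 and the mm10 build are named in the submitters' processing notes, and strand setting, batch and dates were not stated. The authors deposited raw counts per gene, expected counts, TPM, FPKM and effective lengths, per the file headers. The raw counts were used for the tests, the authors' deposited expected counts for 1 alternative, and the authors' deposited TPM only to compare levels between genes, while the authors' deposited FPKM entered no result.

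Genes with at least 10 counts in enough libraries (edgeR filterByExpr) were kept, which left 16316 of 24421. edgeR 4.0.16 (R 4.3.3) fitted all 24 libraries with TMM factors, genotype and sex, and tested Plcg2KO minus WT with glmQLFTest and Benjamini-Hochberg adjustment over all genes at 0.05. limma 3.58.1 was used for the fit relative to the index (pseudocount 0.5), and limma and DESeq2 1.42.0 were alternatives. On simulated counts for 16316 genes and this comparison, the test recovered 39 of 67 genes simulated at 1.5-fold, 61 of 67 at 2-fold and 64 of 66 at 4-fold, with 4 false calls of 168. The simulated counts were drawn independently for each gene, with no other gene changed and no trend with GC content or length. The share of false calls among the real calls therefore cannot be read from them. Correlations of log counts between libraries were 0.984 to 0.992, 0 pairs of libraries held identical counts, and the sex of the label was met in 24 of 24 libraries. GC content was known for 99.2% of the genes tested.

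The members and the 59 gene lists with genes in the table were chosen with earlier results of these data known. Genes are named if they are the 15 largest changes in a direction with average log2 CPM of at least 1, up to 4 called members per direction of a list by p, the 5 smallest p of the sex interaction, calls within 5 Mb of Plcg2, the 6 smallest p per direction relative to the index, or on a short list of pathway genes. Of these 262 genes 73 overlap another gene, and without a stated strand setting their reads may be shared, among them App, Cd74, B2m, P2ry12, Csf1r, Plcg1, Plcb1, Gad2, Plin4, Mrc1, Ogn, Timp2 and the protocadherins. Mitochondrial genes were not analysed here, and some genes counted in the lists are not reported here by name. Alternatives were other scalings and filters, fewer groups, each sex alone, GC and length offsets and each library left out.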

Additional observations from a re-analysis of the deposited data

Results flagged for a closer look

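In each group of 6 libraries the highest and lowest value was compared with its neighbour, as the gap divided by the whole range, for the 52 genes described by library and for library measures. A value above 0.625 was taken for a closer look, in 116 groups tested, where chance alone marks about 1 in 20 groups, and 5 were found. Plcg2KO F1 accounts for 3 of them. It was far under the other Plcg2KO libraries for Tmem119 (15.9 CPM, gap over range 0.761) and for Plcg1 (49.0 CPM, 0.691), and above them for App (2780 CPM, 0.667). In WT, F2 was high for Ttr (1.08 CPM, 0.654). WT F1 was high for the share of counts in Rn45s, the ribosomal RNA precursor (9.59%, 0.833), while the other libraries of both groups were lower, between 0.743% and 3.39% in Plcg2KO. Rn45s itself was at -0.46 ± 0.84 (adjusted p = 0.772). Without WT F1 and the 2 Plcg2HET libraries with the most Rn45s, an alternative chosen after seeing the data, 791 genes rose and 1095 fell.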

How the results depend on the processing

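Genes that rose numbered 1789 (1768 fell) with only Plcg2KO and WT fitted, 1985 (2253) without Plcg2HET, 60 (309) in males alone, 520 (491) in females alone and 1379 (1752) with GC and length offsets. Only Plcg2KO and WT with these offsets, chosen after seeing the data, gave 1799 (1893). Leaving out each library in turn gave 520 to 1017 that rose and 921 to 1250 that fell. The sex interaction had 59 calls with only Plcg2KO and WT, against 0. Other counts stayed within 1.5 times: DESeq2 1194 and 1495, limma 907 and 1226, expected counts 721 and 985, upper-quartile scaling 688 and 1568, no sex term 950 and 1304, and a replicate block 613 and 969. The replicate numbers share only a number: the deviations of same-numbered libraries correlated at 0.100, -0.121, 0.226, 0.303 and 0.119, so no pairing was assumed.

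Plcg2 and Trem2 kept their direction and call in all of these. Of 240 named genes that were called, 93 kept the call in every setting, 129 lost it in males alone, 79 in females alone, 40 without some single library, 9 with GC and length offsets, 20 with expected counts and 1 with only Plcg2KO and WT. Fam83d reversed in females alone (-0.24, adjusted p = 0.678). Some named genes without a call gained one: App in 11 of 28 settings, Abca1 in 8, and Syk and Slc17a7 in 3 each. The causes were not tested, the smaller number of libraries in each sex among them. Genes at a few CPM, such as Fgr, Ctse, Cd5 and Lcn2, rest on few counts.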

Other observations

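Other immune gene families of microglia were lower as well. Of 30 cytokine receptors 13 fell, with Csf3r at -1.40 ± 0.14, Tgfbr2 at -0.90 ± 0.12 and Csf2ra at -0.84 ± 0.13, and the call of Il1rap, which rose by 0.27, was lost in 8 of the 12 fits leaving 1 library out (adjusted p 0.0576 to 0.122), and with GC and length offsets (0.02, adjusted p = 0.914). Of 19 leukocyte integrins and partners 9 fell, including Itgb2 (-1.23 ± 0.09) and Itgam (-0.57 ± 0.08), the chains of complement receptor CR3. Of 19 tetraspanins 7 fell, Cd37 (-1.51), Cd9 (-1.17), Cd53 (-0.89) and Cd82 (-0.49) among them, and 4 fell without Plcg2KO F1. Of 19 MHC class I and immunoproteasome genes 12 fell (median -0.60), with H2-T23 at -0.82. The MS4A family split: Ms4a6b was 1.20, 1.48 and 1.72 CPM in WT and 1.89, 2.28 and 2.61 CPM in Plcg2KO libraries, with no overlap (0.65 ± 0.16), while Tmem176a (-0.94) and Tmem176b (-0.76) fell and Ms4a6d was at -0.21 ± 0.23. Of 23 phagocytic receptors and opsonins 5 fell and 2 rose, Mertk and Dock1 (0.30), the latter lost in 9 of the 12 fits (adjusted p 0.0586 to 0.131) and with GC and length offsets (0.15, adjusted p = 0.107).

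Other large changes were as follows. Trip11, a Golgi tether, was 5.78, 6.95 and 9.32 CPM in WT and 16.4, 17.6 and 20.2 CPM in Plcg2KO libraries, a complete gap (1.27 ± 0.15). Dlk1, a Notch ligand of the delta type, was 3.18, 8.77 and 11.4 CPM in WT and 12.8, 17.2 and 23.5 CPM in Plcg2KO libraries, also apart (1.10 ± 0.21). Aff2 (1.21), Dnaic2 (1.13), Heph (1.02), Prg4 (1.01), Trpm3 (1.0) and Kcnh7 (0.96) rose. On the other side 5031426D15Rik (-2.81), the protease gene St14 (-2.38), the lysosomal peptide transporter Slc15a3 (-2.25), Cd52 (-2.15), Mamdc2 (-2.11) and the actin-capping gene Capg (-2.08) fell. Of 21 circadian clock genes 4 rose, Bhlhe40 and, with calls lost in 9 or 10 of the 12 fits leaving 1 library out, Per1 (0.59), Per2 (0.51) and Cry2 (0.27). Heat shock and unfolded protein genes were mostly not called, with Atf3 (-1.14) and Sdf2l1 (-0.53) lower of 32 and Dnajb5 (0.41) higher, lost in 4 such fits (adjusted p 0.0568 to 0.0862). Of 23 cholesterol synthesis genes 2 fell (8.70%, against 7.63% of all tested genes), Mvd among them. Of 81 cytosolic ribosomal protein genes 1 fell, Rpl18 (-0.42), a call lost in 10 of the 12 fits (adjusted p 0.0524 to 0.155).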
